A study of Mus musculus with 4 samples.

Results

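The Hes and Hey genes encode basic helix-loop-helix repressors, and the 9 mouse members Hes1, Hes2, Hes3, Hes5, Hes6, Hes7, Hey1, Hey2 and Heyl were examined in sorted bone marrow progenitors. The members were chosen by gene symbol in the platform's probe annotation, which gave 13 of the 45101 probe sets on the array and 9 of the 18193 genes that a probe set named alone. Where a member had several probe sets, its main value came from the brightest one by mean over the 4 arrays, and the others are given beside it.

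The cells were lineage-negative, cKit-positive, Sca1-positive (LSK) bone marrow cells, the fraction that holds blood stem cells and multipotent progenitors. The Ncstn KO group carried Ncstn flox/flox alleles with the Mx1-cre transgene, a recombinase gene driven by an interferon-inducible promoter, and the WT group consisted of littermates with Ncstn flox/flox alleles and no transgene. All mice received 3 injections of polyIC, an interferon inducer, at 20 µg per g of body weight from 14 days of age, and were killed 4 weeks after injection, aged 6 weeks. There were 2 arrays per group. Ncstn KO replicate 1 and WT replicate 2 came from females, and Ncstn KO replicate 2 and WT replicate 1 from males. Loss of Ncstn and presence of the transgene cannot be told apart in this design, and Mx1-cre acts in many cell types that respond to interferon, not in blood cells alone.

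Nicastrin, the product of Ncstn, belongs to the gamma-secretase complex that cuts Notch receptors and frees their intracellular part. That part enters the nucleus, binds the DNA-binding protein Rbpj and switches on target genes, of which Hes1, Hes5, Hey1, Hey2 and Heyl are classical examples. Hes proteins end in a short peptide that recruits Groucho/TLE co-repressors, and they bind N box and class C sequences in the genes they repress, Hes1 its own promoter among them. Hes6 differs from its relatives in that it is known to oppose Hes1.

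Promoter letters are shown for the member that was bright on every array, Hes6, and for Hes5, a Notch target. The groups of arrays did not overlap on the main Hes5 probe set but did on its other one. The RefSeq promoter table of GRCm38.p6 held 5 start sites of 4 members (Hes5, Hes6, Hes7 and Hey2), and the 250 bases before each start were searched on both strands. Each sequence reads 5′ to 3′ on the gene's strand, with capitals for the Rbpj core TGGGAA, the N box CACNAG and the class C box CACGCG or their reverse complements. The first is chr4:154960673-154960922 on the plus strand, and the others are chr1:91413223-91413472 and chr1:91414039-91414288 on the minus strand.
Hes5 promoter: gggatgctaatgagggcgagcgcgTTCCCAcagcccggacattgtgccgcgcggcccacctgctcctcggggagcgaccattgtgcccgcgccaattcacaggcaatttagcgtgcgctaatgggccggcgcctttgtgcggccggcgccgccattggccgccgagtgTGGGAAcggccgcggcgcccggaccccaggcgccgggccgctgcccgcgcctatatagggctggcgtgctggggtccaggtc
Hes6 promoter, downstream start: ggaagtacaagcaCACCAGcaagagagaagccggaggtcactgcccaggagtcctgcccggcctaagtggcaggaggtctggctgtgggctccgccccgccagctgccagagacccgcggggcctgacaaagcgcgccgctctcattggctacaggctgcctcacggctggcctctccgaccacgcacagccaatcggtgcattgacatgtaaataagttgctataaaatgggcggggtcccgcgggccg
Hes6 promoter, upstream start: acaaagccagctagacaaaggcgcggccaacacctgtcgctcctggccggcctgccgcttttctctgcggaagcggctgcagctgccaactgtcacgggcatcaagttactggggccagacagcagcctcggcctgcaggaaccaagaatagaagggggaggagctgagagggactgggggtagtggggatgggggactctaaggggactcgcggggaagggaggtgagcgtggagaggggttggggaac
The Hes5 window held 2 Rbpj cores, of which the first began 226 and the second 82 bases before the start. Neither Hes6 window held that core, and the downstream one held 1 N box, beginning 237 bases before the start. Hes7 and Hey2 each held 1 Rbpj core, and Hes7 also held 1 N box and 1 class C box. Among all 32851 promoter windows of this length, 21.6% held the Rbpj core, 36.7% the N box and 7.62% the class C box, while 6.02% held the class B box CACGTG, which none of the 5 windows contained. These matches describe letters only, and their absence from a window says nothing about binding.

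Hes6 was the only member above the array median on all 4 arrays, the median being taken over all probe sets of each array (log2 6.16 to 6.31). Its main probe set had log2 intensities of 11.97 and 11.99 in Ncstn KO replicates 1 and 2, against 11.97 and 11.91 in WT replicates 1 and 2, at the 95.1 percentile of all probe sets. The second Hes6 probe set was also above the median on every array, at 8.96 and 9.05 in Ncstn KO and 8.94 and 9.15 in WT. It stood lower, at the 72.0 percentile, so how bright Hes6 appears depends on the probe set. The groups overlapped for both probe sets. Hes6 was likewise the only member above the higher median over genes (log2 8.06 as the mean of the arrays).

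Hes1, Hes5 and Hey1 lay close to the array median. Hes1 was above it on 1 array of 4, WT replicate 2, and below it by 0.03 (log2) on WT replicate 1. Hey1 was above it on Ncstn KO replicate 1 only. Hes5 was below it on every array, by 0.06 on the nearest, WT replicate 2. These 3 members stood at the 49.6, 47.7 and 46.7 percentiles of all probe sets, in the order Hes1, Hes5 and Hey1, which the ranges of their arrays did not separate.

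The 5 other members were dim, at percentiles from 7.66 for Hey2 to 29.2 for Hes3. Hey2, a Notch target of arteries and heart, had intensities of 7.96 and 7.03 in Ncstn KO and 7.23 and 7.18 in WT, at log2 levels of 2.81 to 2.99, against 10th percentiles of 2.96 to 3.08 on the arrays. The 3 Heyl probe sets ran from log2 3.18 to 4.14. Probe sets differ in how well they bind, and signal over background was not assessed, so a low value does not show that a transcript is absent and these positions do not rank transcripts by abundance.

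**Figure D1:**
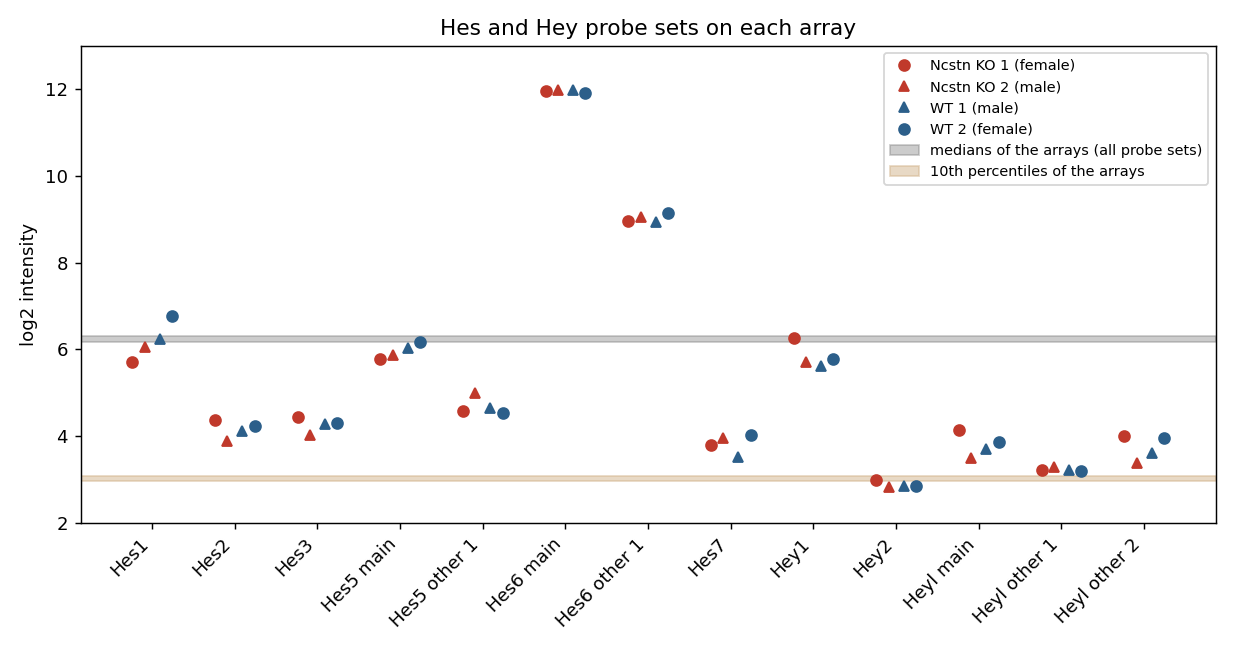
Log2 intensity (y axis) of each of the 13 Hes and Hey probe sets (x axis) on the 4 arrays, with Ncstn KO arrays in red and WT arrays in blue, circles for females and triangles for males; the grey band spans the array medians and the tan band the 10th percentiles. Both Hes6 probe sets sit far above the medians on every array, Hes1, Hes5 and Hey1 sit near them, and the other members lie below.

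No member passed the test between genotypes. A linear model (limma) over all 18193 genes gave 0 members and 0 genes at a Benjamini-Hochberg adjusted p under 0.05, a background of 0%. At an unadjusted p under 0.05 it gave 0 of the 9 members, against 6.80% of all genes. Of the 9 members, 4 were below WT (44.4%) and 5 above, where 44.2% of all genes were below. The members' median log2 difference, Ncstn KO minus WT, was 0.043, against 0.025 over all genes. Both Ncstn KO arrays were below both WT arrays for 2 members, Hes1 and Hes5, a share of 22.2% beside 12.8% of all genes. Both were above for 0 members, beside 21.3% of all genes. The design is small: with 2 against 2, the lowest p that an exact permutation test (two-sided) allows for any member is 0.333, and precision is limited by the number of arrays.

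Hes1, the best known Notch-induced repressor of the family, had the lowest difference of the 9. Its intensities were 52.4 and 67.0 in Ncstn KO replicates 1 and 2, against 75.2 and 108.6 in WT replicates 1 and 2. Both Ncstn KO arrays were below both WT arrays, but the nearer pair, Ncstn KO replicate 2 and WT replicate 1, lay closer to each other than the WT arrays did. On the log2 scale the means were 5.89 ± 0.25 in Ncstn KO and 6.50 ± 0.37 in WT (SD, n = 2 each). The difference was -0.61 (SE 0.30, 95% interval -1.33 to 0.11), or 1.53-fold lower, and it did not pass (limma adjusted p = 0.805). Among all genes 1.88% had a difference as low or lower. The sexes differed in size but not in direction, at -1.05 in the female pair and -0.17 in the male pair. Without WT replicate 2 the difference was -0.34, and without Ncstn KO replicate 1 it was -0.43. In bulk samples such as these, fewer cells of a type and less RNA per cell cannot be told apart.

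Hes5, a Notch target best known from neural stem cells, had its main probe set at 55.0 and 58.2 in Ncstn KO replicates 1 and 2, against 65.8 and 72.0 in WT replicates 1 and 2. The groups did not overlap, and the log2 difference was -0.28 (SE 0.24, 95% interval -0.86 to 0.30, limma adjusted p = 0.945). It was -0.39 in the female pair and -0.18 in the male pair. The dimmer Hes5 probe set went the other way, at log2 4.58 and 5.00 in Ncstn KO and 4.64 and 4.54 in WT, a difference of 0.20 with overlapping groups. The mean of both probe sets gave -0.039.

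Hey1, which encodes a repressor induced by Notch and also by bone morphogenetic proteins, had the highest difference of the 9, 0.29 (SE 0.28, 95% interval -0.40 to 0.98, limma adjusted p = 0.963). Its intensities were 76.5 and 52.5 in Ncstn KO replicates 1 and 2, against 48.9 and 55.2 in WT replicates 1 and 2. The groups overlapped, since only Ncstn KO replicate 1 was high. Without that array the difference was 0.016, and without Ncstn KO replicate 2 it was 0.56.

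Hes6 had the smallest range over the 4 arrays of the 9 main probe sets, 0.086 on the log2 scale. Its main probe set had intensities of 4014 and 4075 in Ncstn KO replicates 1 and 2, against 4017 and 3838 in WT replicates 1 and 2, with overlapping groups. The difference was 0.043 (SE 0.085, limma adjusted p = 0.989), and its 95% interval ran from -0.16 to 0.25. The second probe set gave -0.037. The sign of the main value turned to -0.15 when scaled to the hybridization controls.

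The dim members showed no separation between the groups. Heyl, a Hey relative known from vessels and muscle, had 17.6 and 11.3 in Ncstn KO replicates 1 and 2, against 12.9 and 14.6 in WT replicates 1 and 2. Its differences were 0.044 for the main probe set and 0.048 and -0.091 for the others. Hes7, part of the clock that sets somites in the embryo, had 13.8 and 15.5 in Ncstn KO and 11.5 and 16.2 in WT, a difference of 0.099. Hes2 (-0.045) and Hes3 (-0.059) had intensities of 14.7 to 21.6 over Ncstn KO arrays and 17.3 to 19.7 over WT arrays. For Hes2, Hes3 and the Heyl main probe set, Ncstn KO replicate 1 was the highest array and Ncstn KO replicate 2 the lowest, so the Ncstn KO arrays bounded the WT arrays. Hey2 had a difference of 0.054. The limma adjusted p of these 5 members ran from 0.991 for Hes7 to 0.9996 for Hes2, Hes3 and Heyl, and scaling to the hybridization controls turned the signs of Hes7, Hey2 and Heyl.

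**Figure D2:**
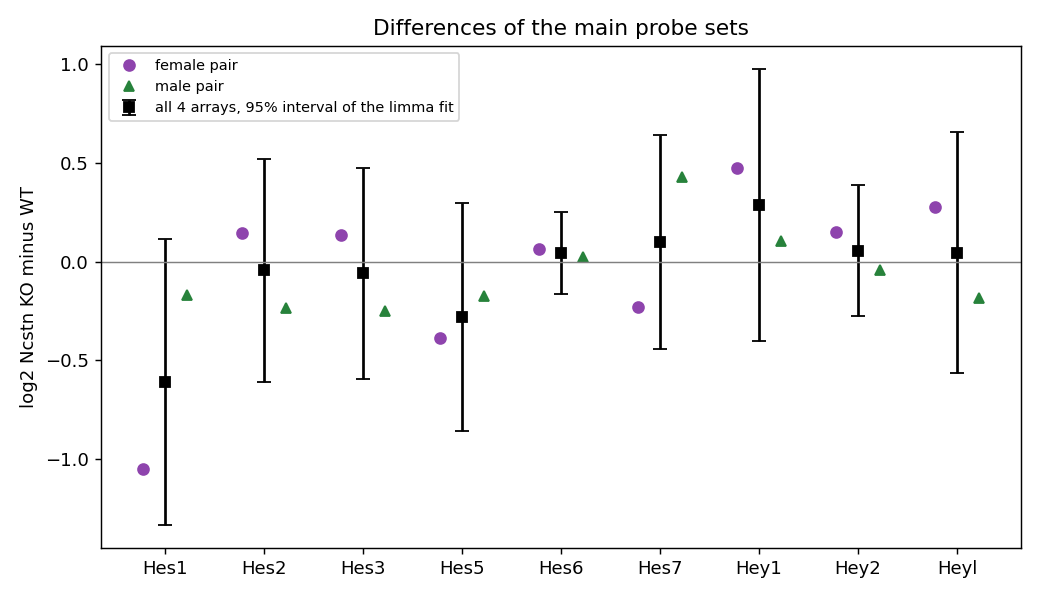
Log2 difference, Ncstn KO minus WT (y axis), of each member's main probe set (x axis), with black squares and bars for the 4-array value and its 95% interval from the limma fit, purple circles for the female pair and green triangles for the male pair (1 array of each genotype per pair). Every interval includes 0, and the female and male pairs lie on opposite sides of 0 for 5 members.

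Ncstn itself, the targeted gene, stood at log2 7.58 and 7.91 in Ncstn KO, against 9.05 and 8.98 in WT, with no overlap, a log2 difference of -1.27 (SE 0.22) and a limma adjusted p over all genes of 0.257. The second Ncstn probe set, which is dimmer, had 5.86 and 7.09 in Ncstn KO and 6.81 and 6.79 in WT, a difference of -0.32 with overlapping groups. The mean of both gave -0.80. None of the other pathway genes below passed at an adjusted p under 0.05, so they are given by value. Of 9 Notch receptors and ligands, the groups did not overlap for 6, beside 34.0% of all genes. The receptor genes Notch3 (0.98, SE 0.27) and Notch4 (0.86, SE 0.28) had the highest differences, while Jag1, a ligand gene, had -0.70 (SE 0.24) and its relative Jag2 -0.34 (SE 0.16). The brighter receptor genes stood at -0.15 (SE 0.09) for Notch1 and 0.02 (SE 0.07) for Notch2. Notch2 turned to -0.17 under the scaling to the hybridization controls. Among 13 nuclear factors and modulators the groups did not overlap for 5 higher (38.5%, beside 21.3% of all genes) and 2 lower (15.4%, beside 12.8%). Lfng, which glycosylates Notch, stood at -0.37 (SE 0.14), Kdm5a at 0.30, Numb, a Notch inhibitor, at 0.30 and Rbpj at 0.16 (SE 0.11). Rbpj had 0.10 without WT replicate 2, and the mean of all probe sets gave 0.46 for Notch4, -0.46 for Jag1 and 0.056 for Kdm5a.

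All 6 measured genes of the Groucho/TLE family were above the array median on every array, but Tle1 and Tle2 were below the higher median over genes. Tle3 had a log2 difference of -0.08 (SE 0.10), Tle4 of -0.11 (SE 0.10), Tle5 of -0.10, Tle1 of -0.30 (SE 0.28) and Tle2 of 0.21 (SE 0.35). Tle1 had -0.062 without Ncstn KO replicate 2 and -0.54 without Ncstn KO replicate 1. Tle6, a divergent member, had 9.21 and 9.23 in Ncstn KO against 8.49 and 8.56 in WT, a difference of 0.69 (SE 0.18, limma adjusted p = 0.480). Of 7 genes for E proteins and for the Id proteins that block them, 2 had groups that did not overlap (28.6%, beside 34.0% of all genes). Id2 stood at 10.65 and 10.70 in Ncstn KO and 9.86 and 10.21 in WT, a difference of 0.64 (SE 0.16), and Id1 had 0.75 (SE 0.30). Id1 had 0.35 without Ncstn KO replicate 2 and 1.14 without Ncstn KO replicate 1. Bhlhe40, a repressor with the same Orange domain as the Hes proteins, had 0.48 (SE 0.21).

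Of 10 other measured Notch target genes, 5 were below WT (50%, beside 44.2% of all genes) and 5 above, and the groups did not overlap for 5 (50%, beside 34.0%). Ptcra, the pre-T cell receptor alpha gene, had -0.50 (SE 0.25) and Dtx1 -0.33 (SE 0.21), both dim, and Nrarp, a feedback inhibitor, had -0.13 (SE 0.15). Il2ra, dim as well, had 0.88 (SE 0.29). Nrarp ranged from -0.021 without Ncstn KO replicate 2 to -0.23 without Ncstn KO replicate 1, and the mean of its probe sets was -0.36. Il2ra had 0.51 without Ncstn KO replicate 1, and Ptcra ranged from -0.80 to -0.21 when either WT array was left out. Myc had 0.18 and turned negative under the scaling to the hybridization controls.

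A list of 10 measured genes that Hes1 is reported or proposed to repress, written from general knowledge, was set beside Hes1. Sirt2 and Dusp7 are its least certain members, and the list was chosen with earlier results of these data known. The shares below therefore describe the list only, and repression by Hes1 was not tested. Of the 10 genes 8 were above WT (beside 55.8% of all genes), with a median difference of 0.23 beside 0.025 over all genes. Both Ncstn KO arrays were above both WT arrays for 6 (60% beside 21.3% of all genes), Sirt2 among them at 0.14 (SE 0.13). Only 7 of the 10 were above the array median on every array. Dll1 (0.29, SE 0.23), Atoh1 and Neurog3 were dim and count among the 8, and Dll1 also among the 6. Cebpa, a myeloid transcription factor gene, had log2 levels of 12.57 and 12.46 in Ncstn KO, against 12.22 and 12.13 in WT, a difference of 0.34 (SE 0.08, limma adjusted p = 0.471). Spi1, which encodes the myeloid factor PU.1, had 0.26 (SE 0.15), Gadd45g 0.88 (SE 0.33) and Cdkn1c, a cell cycle inhibitor gene, 0.58 (SE 0.28). Cdkn1b, another such inhibitor gene, had -0.21 (SE 0.10) and lay below WT. Without WT replicate 1, Gadd45g had 0.53 and Cdkn1c 0.33. The list's median was 0.12 without Ncstn KO replicate 1, 0.38 without Ncstn KO replicate 2 and 0.039 under the scaling to the hybridization controls. Of 11 neutrophil and monocyte genes 11 were also above WT (beside 55.8% of all genes), and the groups did not overlap for 5 (45.5%, beside 34.0%). Their median difference was 0.36, but -0.033 without Ncstn KO replicate 2 and -0.022 without WT replicate 2. Leaving out Ncstn KO replicate 1 gave 0.83. The list was mixed. Among the 5 without overlap, F13a1 had 1.643, Ccr2 1.498 and Cd14 1.096 (limma adjusted p = 0.210, 0.233 and 0.405). Leaving out 1 array could not turn the sign of these genes. S100a8 (0.108), S100a9 (0.010), Lyz2 (0.046) and Ngp (0.103) had small differences and overlapping groups. The log2 summed intensity of the 11 genes was 15.67 and 16.03 in Ncstn KO and 15.81 and 15.53 in WT, with overlapping groups. That sum gives most weight to the brightest genes, S100a9 and S100a8. The part of these cells in the values of Cebpa and Spi1 was not tested.

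**Figure D3:**
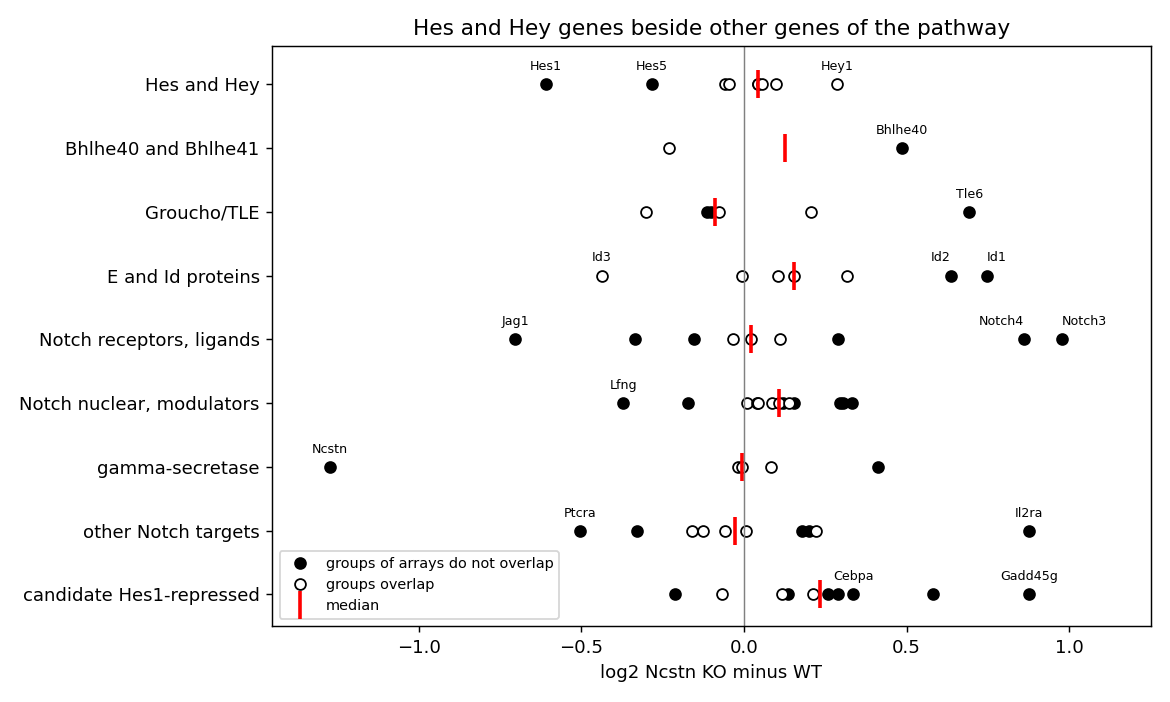
Log2 difference, Ncstn KO minus WT (x axis), of each measured gene of 9 gene lists (y axis), filled where the 2 groups of arrays did not overlap and open where they did, with a red bar at each list's median. Hes1 and Hes5 are the only filled points of the Hes and Hey list, Ncstn has the lowest value of all lists shown, and most candidate Hes1-repressed genes lie above 0.

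The labelled cell type was checked against its markers. All 8 measured stem and progenitor markers, among them Cd34, Flt3 and Kit (log2 11.70 and 11.73 in Ncstn KO, 11.94 and 11.57 in WT), were above the array median on every array, and Ly6a was not analysed here. The groups did not overlap for 4 of the 8 (50%, beside 34.0% of all genes). Slamf1 had 11.07 and 10.67 in Ncstn KO, against 10.44 and 9.64 in WT, Gata2 had a difference of 0.31 (SE 0.07), and Cd48 and Cd34 had -0.10 and -0.03. Of 7 measured genes on the list for mature lineages, 3 were above the array median on every array, namely Ptprc, Cd4 and Cd79a. The B cell gene Ms4a1 had 5.74 and 5.74 in Ncstn KO, against 7.79 and 7.94 in WT. Cd79a, also a B cell gene, overlapped between the groups, at 6.8 and 8.0 in Ncstn KO and 7.6 and 7.9 in WT, a difference of -0.37. The myeloid gene Itgam had 5.45 and 5.77 in Ncstn KO, against 4.05 and 5.02 in WT. Neutrophil genes that the gate should remove were bright as well, with S100a8 at 13.34 and 13.62 in Ncstn KO and 13.50 and 13.24 in WT. Endothelial and stromal cells are a known site of Hey gene use. Their marker Cdh5 was dim (3.97 and 3.90 in Ncstn KO, 3.73 and 4.02 in WT) and Kdr stood at 5.18 to 5.31 over the 4 arrays. The collagen genes Col1a1, Col1a2 and Col3a1 were below the array median on every array as well. Pecam1, Esam, Tek, Vwf and Pdgfrb were above it on every array. Whether their signal came from endothelial or stromal cells or from the LSK cells themselves was not tested, so it does not show that such cells were present. Of the 14 genes on this list 9 were above WT and 5 below (35.7%, beside 44.2% of all genes). Their summed log2 intensity was 12.18 and 12.25 in Ncstn KO and 12.14 and 11.97 in WT. Cxcl12, a stromal chemokine gene, had 4.69 and 7.84 in Ncstn KO, against 8.32 and 8.56 in WT. Xist and Y-linked genes matched the sex labels on all 4 arrays.

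The genes whose levels over the 4 arrays were most like those of Hes1 were Klhdc4, Ccser1 and Dctd. They had the smallest root mean square difference from Hes1 (0.107, 0.113 and 0.115 on the log2 scale) once each gene was centred on its own mean, among 9096 genes above the median over genes. Klhdc4 had 8.94 and 9.23 in Ncstn KO, against 9.46 and 9.73 in WT. A likeness over 4 arrays is a description of these arrays only.

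**Figure D4:**
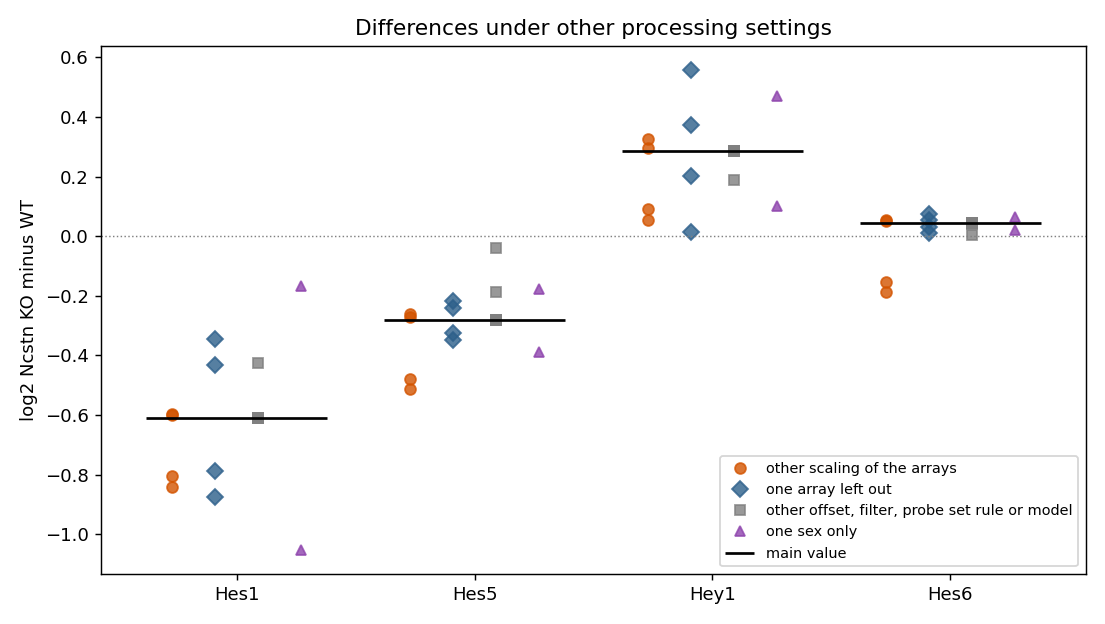
Log2 difference, Ncstn KO minus WT (y axis), of Hes1, Hes5, Hey1 and Hes6 (x axis) under the main setting (black line) and under other processing settings, coloured by kind. Hes1 stays below 0 under every setting shown, from -1.05 to -0.17, as does Hes5, whose value nearest 0 is the mean of its probe sets. For both genes the sign was fixed in advance where 1 array was left out or 1 sex taken, since their groups did not overlap. Hes6 turns negative under the scaling to the hybridization controls.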

How the data were processed

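RNA of 4 sorted samples (5 ng each, amplified and biotin-labelled per the labels' protocols) was measured on Affymetrix arrays. The authors deposited 1 intensity per probe set, unlogged, made with RMA (per the submitters' processing notes); its software and version are not given in the sources used. Log2 was taken with no further scaling. Amplification from so little RNA adds noise for dim genes, and signal over background could not be assessed from summarised values.

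Of 45101 probe sets, 64 controls were left out, and 34945 named 1 gene, 932 several and 9160 none. The probe set with the highest mean represented each of 18193 genes. Gene symbols are those of GEO's platform table.

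Ncstn KO was compared with WT by limma 3.58.1 in R 4.3.3 (lmFit, eBayes with trend, genotype as the only term, two-sided, Benjamini-Hochberg over all genes at 0.05), on 2 residual degrees of freedom plus a mean of 4.11 prior ones. The code was tested on simulated data. Alternatives changed the scaling, an offset of 32, a filter on dim genes, the probe set rule, the variance model, sex and replicate terms, and left out each array. Named genes were all members, Ncstn, up to 4 genes a list by smallest unadjusted p, genes fixed by name and the 3 most like Hes1. Markers given only as a check of the cells are outside that rule. The members and lists were chosen with earlier results of these data known, and some listed genes were not analysed here. Figures were drawn with matplotlib 3.10.9.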

Additional observations from a re-analysis of the deposited data

Results flagged for a closer look

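For 5 of the 9 members the female pair (Ncstn KO replicate 1 and WT replicate 2) and the male pair (Ncstn KO replicate 2 and WT replicate 1) differed in opposite directions. With 1 array of each genotype per sex this was not tested, and 45% of all 18193 genes did the same. The log2 differences, Ncstn KO minus WT, were 0.146 in females and -0.235 in males for Hes2, and 0.134 in females and -0.252 in males for Hes3. For Hes7 they were -0.229 in females and 0.428 in males. They were 0.149 in females and -0.0405 in males for Hey2, and 0.274 in females and -0.186 in males for Heyl. All 5 are dim probe sets.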

How the results depend on the processing

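The count of members at an adjusted p under 0.05 was 0 under every alternative run. Hes1 and Hes5 were lower in Ncstn KO and Hey1 higher under all 16 alternatives that gave a value for each, single-sex values included. Many of these could not have turned the sign of Hes1 or Hes5. Since their groups of arrays did not overlap on the main probe set, leaving out an array or taking 1 sex had to keep it. Changes to the variance model and the sex and replicate terms left the differences as they were. Hes1 and Hes5 ranged from -1.05 to -0.17 and from -0.51 to -0.039, with limma adjusted p of at least 0.223 and 0.288. Hey1 ranged from 0.016 to 0.56. With the filter on dim genes only Hes6 was tested among the members. The number of members above the array median was 1, and 2 (Hes6 and Hes1) by the mean level of WT arrays. The count of all genes called was 0, but 3 after quantile normalization, 62 after centring each array on its median and 1 among genes above the median over probe sets. Leaving out 1 array gave 0 to 27 genes, with 23 without Ncstn KO replicate 1 and 27 without Ncstn KO replicate 2.

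The 18 hybridization control probe sets averaged 0.195 (log2) higher in Ncstn KO, and scaling to them lowers every difference by that amount, the median of all genes included (-0.171). It put 8 of 9 members below WT, and the share of all genes below WT under it is not given here. At an unadjusted p under 0.05 this scaling gave 1 member, beside 2840 of 18193 genes. That member was Hes1 (limma unadjusted p = 0.0355, adjusted p = 0.296). The values that turned were -0.153 for Hes6, -0.096 for Hes7, -0.141 for Hey2, -0.151 for Heyl, -0.175 for Notch2, -0.040 for Rbpj, -0.042 for Tcf12, -0.113 for Aph1b and -0.016 for Myc. Without the cre control probe sets, an alternative chosen after seeing the data because the Ncstn KO mice carry a cre transgene, they were -0.188 for Hes6, -0.132 for Hes7, -0.177 for Hey2, -0.187 for Heyl, -0.211 for Notch2, -0.076 for Rbpj, -0.078 for Tcf12, -0.149 for Aph1b and -0.052 for Myc. The mean of all probe sets turned Tle3 (0.153), Tcf12 (-0.044) and Aph1a (0.368). The cause of these turns was not tested beyond the shift itself.

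Leaving out 1 array turned the sign of dim or small differences. Over the 4 such fits they ranged from -0.293 to 0.203 for Hes2, -0.267 to 0.148 for Hes3, -0.147 to 0.345 for Hes7, -0.035 to 0.144 for Hey2 and -0.274 to 0.362 for Heyl. Among the other genes they ranged from -0.039 to 0.080 for Notch2, -0.178 to 0.023 for Tle3, -0.015 to 0.322 for Tcf12, -0.122 to 0.286 for Aph1b, -0.200 to 0.164 for Aph1a and -0.232 to 0.143 for Kit.

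Deviations from the group means of same-numbered samples, which were of opposite sex, correlated at -0.242 over genes, so the numbers do not pair the samples. Over genes, the Ncstn KO arrays correlated at 0.9895 with each other, the lowest of all pairs of arrays. The WT arrays correlated at 0.9951 with each other, and each same-sex pair of unlike genotype at 0.9922. The fit with replicate number as a block gave 0 members and 0 genes, with Hes1 at -0.61 and an unadjusted p of 0.105; the crossed pairing, which equals the fit with sex as a term, also gave 0 genes. It changed no other call. Depth does not apply to arrays. Signal over background was not assessed for any member. It limits the 5 dim members most, and also Hes1, Hes5 and Hey1, which lay close to the array median.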
